A study of Mus musculus with 6 samples.

Results

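This account concerns 7 mouse genes tied to the IL-17-producing (type 17) state of γδ T cells, namely Cd163l1, 5830411N06Rik, Tmem176a, Tmem176b, Ramp1, Igf1r and Actn2. The genes were chosen with earlier results of these data known. They were taken by name from the 6 arrays of the study, with every probe of each name, whatever its value. That gave 7 of the 30342 names on the array and 13 of its 39429 probes. All 7 genes were above background on all 6 arrays and were among the 16413 genes that could be tested. The arrays measured RNA of spleen γδ T cells from Eomes-IRES-GFP mice (the Eomestm1.1Twa allele) on a C57BL6 background, in which GFP reports Eomes, a T-box transcription factor of cytotoxic lymphocytes. B220+, CD4+ and CD8β+ cells were depleted, and CD3+ TCRγδ+ TCRβ- cells were then sorted into GFP+ and GFP- cells, with no further treatment. Both groups carry the reporter allele, there were 3 arrays in each group, and arrays with the same replicate number share a mouse age of 9, 9.5 or 7.5 weeks and an RNA input of 9, 9 or 4 ng for replicates 1, 2 and 3. Per the series' design text, the samples came from 3 independent sorts, each of 4 to 6 pooled mice, so the values are those of pools and not of single animals.

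γδ T cells leave the thymus with preset functions, and one branch makes IL-17 under transcription factors such as SOX13 and MAF while another makes interferon-γ under T-box factors. Cells of the type 17 branch are commonly recognised by surface proteins such as CCR6, the IL-23 receptor and the scavenger receptors SCART1 and SCART2. SCART1 and SCART2 are the products of Cd163l1 and 5830411N06Rik. TMEM176A and TMEM176B are four-span membrane proteins of intracellular vesicles that are also abundant in dendritic cells and macrophages. RAMP1 and the IGF1 receptor are parts of hormone and peptide receptors. Actn2 encodes α-actinin-2, an actin cross-linking protein of the muscle Z disc that lies inside the cell, so it is not a surface protein, and the TMEM176 proteins lie largely on internal membranes.

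All 7 genes were lower in GFP+ than in GFP- cells within each of the 3 replicate numbers, and for none of them did the groups overlap. Among all genes tested, 9.68% lay lower in GFP+ cells with no overlap. The differences ran from -6.22 for 5830411N06Rik to -1.97 for Igf1r on the log2 scale, with a median of -3.80, against a median of -0.01 over all genes tested. Of the 7 genes, 6 fell (limma, Benjamini-Hochberg adjusted p under 0.05) and 0 rose, where 1.57% of all genes fell and 1.2% rose. Tmem176b did not pass, with an adjusted p of 0.0586. The replicate numbers pair the arrays, and with the number as a block all 7 passed, where 4.33% of all genes fell. At the level of single probes, 10 of the 11 tested probes of these genes were called lower, where 1.38% of all probes were, and the remaining 2 of the 13 were not above background on any array. Since the 7 genes were chosen with earlier results known, these shares are a background and not a test of the set.

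**Figure D1:**
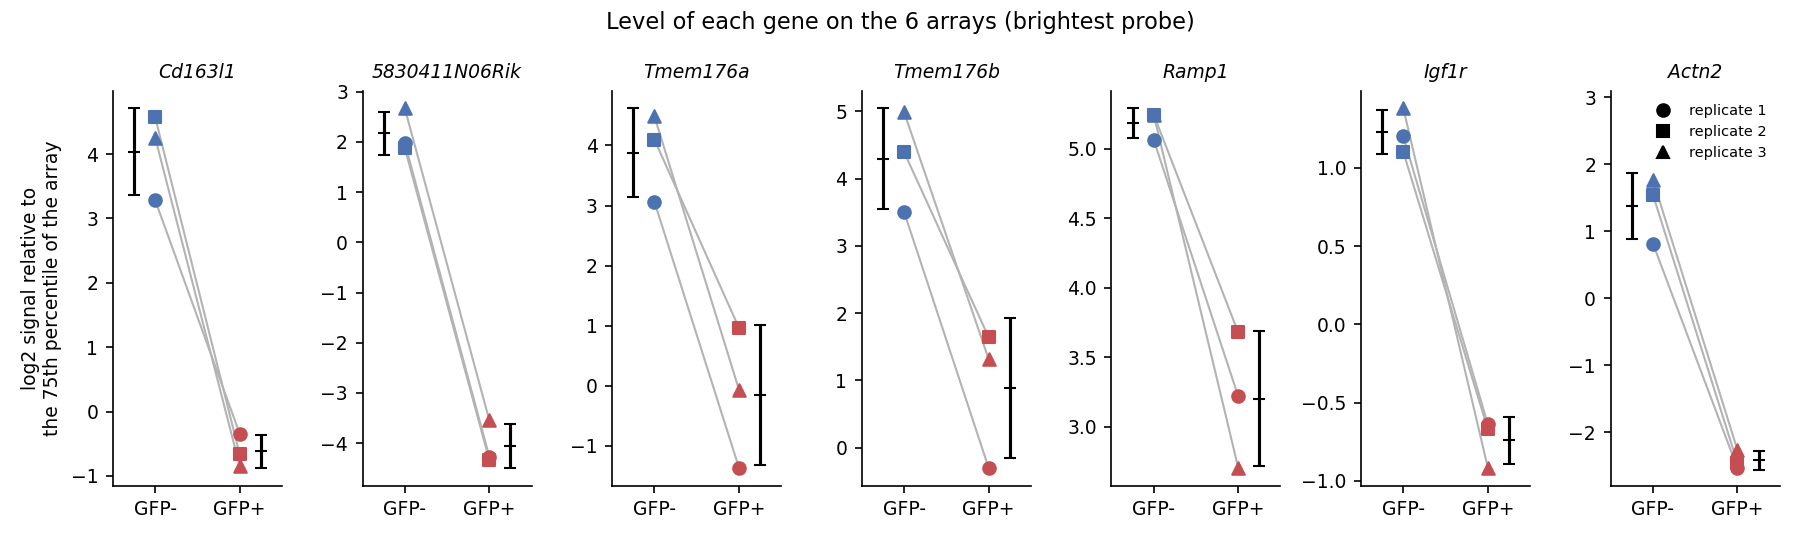
Level of each of the 7 genes on each array, as log2 signal above or below that array's 75th percentile, for the brightest probe of the gene; lines join arrays of the same replicate number, and the bars beside the points give the mean ± SD of 3 arrays. Every line falls from GFP- to GFP+; each panel has its own axis because levels of different probes cannot be compared.

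Each level is the log2 signal minus that array's own 75th percentile, so that a level of 0 equals that percentile and a difference of -1 means a signal 2-fold lower; levels were not compared between probes. Eomes itself checked the sort. Its level was 0.72, 0.88 and -1.14 in GFP- replicates 1, 2 and 3 and 5.31, 4.96 and 4.48 in GFP+ cells, a difference of 4.76 ± 0.59 (SE; limma, adjusted p = 0.0178). The 6 γδ T cell markers on the array were above background on all arrays, with summed linear signals of 258 to 326 in GFP+ and 275 to 350 in GFP- cells; 1 of the 6 fell, Tcrg-V6, and Cd3d, Cd3e and Cd3g had differences between -0.07 and -0.06. The raw 75th percentile was 1581 to 1684 for replicates 1 and 2 and 534 to 549 for replicate 3, which had the smaller RNA input, and 47.7% to 56.6% of probes were above background. Replicates differed in markers of other cells. In replicate 2 the summed myeloid signal was 326 in GFP- and 270 in GFP+ cells against 88.9 to 120 on the other 4 arrays, and the neutrophil signal was 205 and 241 against 1.66 to 1.93. The B cell signal was also highest there, at 77.4 and 61.2, against 9.64 to 30.5 on the other arrays. The erythroid and platelet signal was 240 and 222 in replicate 2 and 165 and 280 in GFP- and GFP+ cells of replicate 3, against 23.4 and 23.5 in replicate 1; 0 genes of these 4 lists passed the test. Of 4 αβ T cell markers 1 fell, with sums of 3.31 to 3.36 in GFP+ and 8.33 to 11.2 in GFP- cells. It was Cd8b1, with mean levels of -0.32 in GFP+ and 2.53 in GFP- cells. Cd4, Cd8a and Tcra did not pass, with differences of -0.39, -0.88 and 0.18. Of 10 markers of type 3 innate lymphoid cells, which share much of the type 17 programme but lack CD3, 2 fell (Il23r and Il1r1, both also of the type 17 list) and 1 rose (Cxcr5), with sums of 21.6 to 29.6 in GFP+ and 46.9 to 58.8 in GFP- cells. Of 7 NK cell markers 3 rose, among them Eomes, whose reporter defined the sort and which adds to the sum, with sums of 72.2 to 88.3 against 7.66 to 16.2. Each sum is of linear signal and so weighs the brightest genes of its list most. In the innate lymphoid list the brightest was Il7r, also of the type 17 list. Its mean levels were 3.97 in GFP+ and 5.39 in GFP- cells (limma, adjusted p = 0.0600). In the myeloid list it was Siglech, with mean levels of 5.81 in GFP+ and 5.79 in GFP- cells. The part of these other cell types in the results was not tested.

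Cd163l1 and 5830411N06Rik encode receptors of the scavenger receptor cysteine-rich (SRCR) family, which bind polyanionic ligands in other members of the family. The single Cd163l1 probe lies at chr7:147416971-147417030 (mm9, as in the scanner files). Its level was 3.28, 4.57 and 4.26 in GFP- replicates 1, 2 and 3 and -0.34, -0.67 and -0.84 in GFP+ replicates 1, 2 and 3. The GFP- array of replicate 1 was the lowest of its group, and it still lay above every GFP+ array. Cd163l1 fell by 4.66 ± 0.36 (SE) on the log2 scale, 25.2-fold (limma, adjusted p = 0.0044). Within replicates 1, 2 and 3 the difference was -3.63, -5.24 and -5.10, that is 12.4-fold, 37.7-fold and 34.3-fold.

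For 5830411N06Rik the brightest of 3 probes lies at chr7:147483229-147483288. Its level was 1.98, 1.88 and 2.67 in GFP- and -4.27, -4.33 and -3.54 in GFP+ replicates 1, 2 and 3. Replicate 3 was the highest of both groups, and the difference was nearly the same in each pair, at -6.25, -6.21 and -6.21. The gene fell by 6.22 ± 0.32 (SE), 74.8-fold (limma, adjusted p = 0.00174), the 12th lowest difference of the 16413 genes tested. On this brightest probe the fold within a replicate number varied by a factor of 1.03 between the pairs, against 3.05 for Cd163l1. The probe at chr7:147483547-147483606 gave 60.0-fold (limma over single probes, adjusted p = 0.00165). Its differences varied more, at -5.71, -5.78 and -6.24 within replicates 1, 2 and 3. The third, upstream of both at chr7:147481704-147481763 and designed on a RIKEN clone record, had no signal above background on the arrays, so it has no test. Under normexp background correction, which adds an offset to all signals, the difference of 5830411N06Rik was -5.10, and with all 3 probes averaged it was -4.41.

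Both SCART genes lie on chromosome 7, 16133 bases apart in RefSeq on GRCm38.p6. Of the 13 SRCR family genes listed as relatives, 7 were tested; 0 passed in either direction (limma), with 2 lower and 0 higher at an unadjusted p under 0.05, and 1 lower with the replicate block. Over all genes tested, 6.32% were lower and 5.92% higher at an unadjusted p under 0.05, and these shares are the background for the unadjusted counts of each family. Their median difference was -0.56. Among these relatives were Lgals3bp, a secreted SRCR protein, at -0.41 ± 0.19 (SE; adjusted p = 0.523), and Cd5, an inhibitory co-receptor of T cells, at -0.82 ± 0.18 (adjusted p = 0.101, and 0.0272 with the block).

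The RefSeq promoter windows of 5830411N06Rik are shown because 2 of the motifs searched share bases there. Windows ran from 250 bases before to 50 after an annotated start site, on GRCm38.p6, and 12 windows belong to the 7 genes. Searched on both strands were AGGTCA, the core site read by ROR factors, TGCTGAC, a MAF core site, GGTGTGA, a T-box core site, and AACAAT, a SOX site. In the windows of the last 2 of its 3 start sites the MAF core site starts 40 and 37 bases after the start, and the ROR core site, on the other strand, overlaps its last bases. The capitals mark both together in the earlier of these windows.
5830411N06Rik, chr7:140247128-140247427 (+ strand): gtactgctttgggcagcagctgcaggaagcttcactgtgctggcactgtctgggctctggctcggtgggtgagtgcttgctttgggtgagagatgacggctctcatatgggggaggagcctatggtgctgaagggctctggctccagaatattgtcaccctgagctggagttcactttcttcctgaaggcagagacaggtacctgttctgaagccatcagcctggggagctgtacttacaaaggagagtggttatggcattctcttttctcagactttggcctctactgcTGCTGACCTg

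Capitals in the window of the first start site mark a further ROR core site, 238 bases before that start, on the other strand.
5830411N06Rik, first start site, chr7:140247051-140247350 (+ strand): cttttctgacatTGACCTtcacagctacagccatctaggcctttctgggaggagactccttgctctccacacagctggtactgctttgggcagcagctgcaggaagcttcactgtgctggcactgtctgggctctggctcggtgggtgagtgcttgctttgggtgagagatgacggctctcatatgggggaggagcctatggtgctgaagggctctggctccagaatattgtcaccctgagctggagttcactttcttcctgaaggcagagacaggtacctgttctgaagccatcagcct

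The ROR core site occurred in 5 of the 12 windows and in 16.3% of the 32851 windows of all genes. The 5 were the 3 windows of 5830411N06Rik, which overlap and hold 2 different matches, and 1 each of Actn2 and Igf1r. The MAF core site occurred in 2 of the 12, both of 5830411N06Rik, and in 4.67% of all windows. These 2 windows overlap and hold the same match. The T-box core site occurred in 0 of the 12 and 3.98% of all. All of these are matches of letters in a window, and no binding was measured.

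Tmem176a and Tmem176b lie at the same place on chromosome 6 on opposite strands. The Tmem176a probe (chr6:48794048-48794107, mm9) had levels of 3.06, 4.10 and 4.48 in GFP- and -1.37, 0.96 and -0.07 in GFP+ replicates 1, 2 and 3. The GFP+ values were widely spread (SD 1.17, n = 3), with replicate 2 the highest, and all lay below the GFP- values. Tmem176a fell by 4.04 ± 0.67 (SE), 16.4-fold (limma, adjusted p = 0.0430, and 0.0120 with the replicate block). The difference was -4.43, -3.13 and -4.55 within replicates 1, 2 and 3.

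The brighter Tmem176b probe (chr6:48783831-48783890) had levels of 3.50, 4.39 and 4.99 in GFP- and -0.30, 1.64 and 1.32 in GFP+ replicates 1, 2 and 3. The pattern over arrays was that of Tmem176a, with the lowest level of each group in replicate 1. The difference was -3.41 ± 0.62 (SE), 10.6-fold, with an adjusted p of 0.0586 in limma without the block and 0.00957 with it. Within replicates 1, 2 and 3 it was -3.80, -2.75 and -3.67. The second probe, at chr6:48788172-48788231, differed by -3.68, 12.8-fold, and passed among single probes (adjusted p = 0.0455), where the brighter one did not (adjusted p = 0.0619). With both probes averaged Tmem176b passed too (difference -3.54, adjusted p = 0.0471). The root mean square difference between the centred levels of Tmem176a and Tmem176b over the 6 arrays was 0.380.

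Since TMEM176 genes are also expressed by myeloid cells, myeloid markers are given beside them. Of 16 monocyte, macrophage and dendritic cell markers on the array, 13 were above background on all GFP+ and 13 on all GFP- arrays, and 0 passed in either direction. Lyz2, the lysozyme of macrophages and neutrophils, had levels of 0.12, 5.22 and 2.37 in GFP- and 0.67, 5.28 and 2.95 in GFP+ replicates 1, 2 and 3. Among the GFP+ arrays the order of Lyz2 (replicate 2, then 3, then 1) was that of Tmem176a and Tmem176b; among the GFP- arrays it was not, since both TMEM176 genes were highest in replicate 3. The 15 tested markers of this list had a median difference of -0.05. Within replicates 1, 2 and 3, 9, 11 and 2 of them were lower in GFP+ cells, 0 in all 3 replicates, and 3 were higher in all 3. Csf1r, the receptor for macrophage colony-stimulating factor, differed by -2.69, -1.40 and 0.83 and Adgre1, the F4/80 antigen, by -3.31, -1.57 and 1.03 within replicates 1, 2 and 3, while Lyz2 differed by 0.55, 0.06 and 0.58. Csf1r and Adgre1 were thus lower in GFP+ cells of replicates 1 and 2, as the TMEM176 genes were, and higher in replicate 3; they are named after their values were seen. S100a8, a neutrophil gene, was at 5.64 and 5.89 in replicate 2 and between -2.29 and -1.52 elsewhere. The part of these cells in the TMEM176 values was not tested. Without both arrays of replicate 2 the differences were -4.49 for Tmem176a (limma, adjusted p = 0.172, unadjusted 0.00355) and -3.74 for Tmem176b (adjusted p = 0.289, unadjusted 0.0104). No gene of the array passed in that fit (lowest adjusted p 0.0616), so the lost calls say nothing about the TMEM176 genes. In RNA of bulk sorted cells, fewer cells of a type and less RNA per cell cannot be told apart, here and for the other genes.

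**Figure D2:**
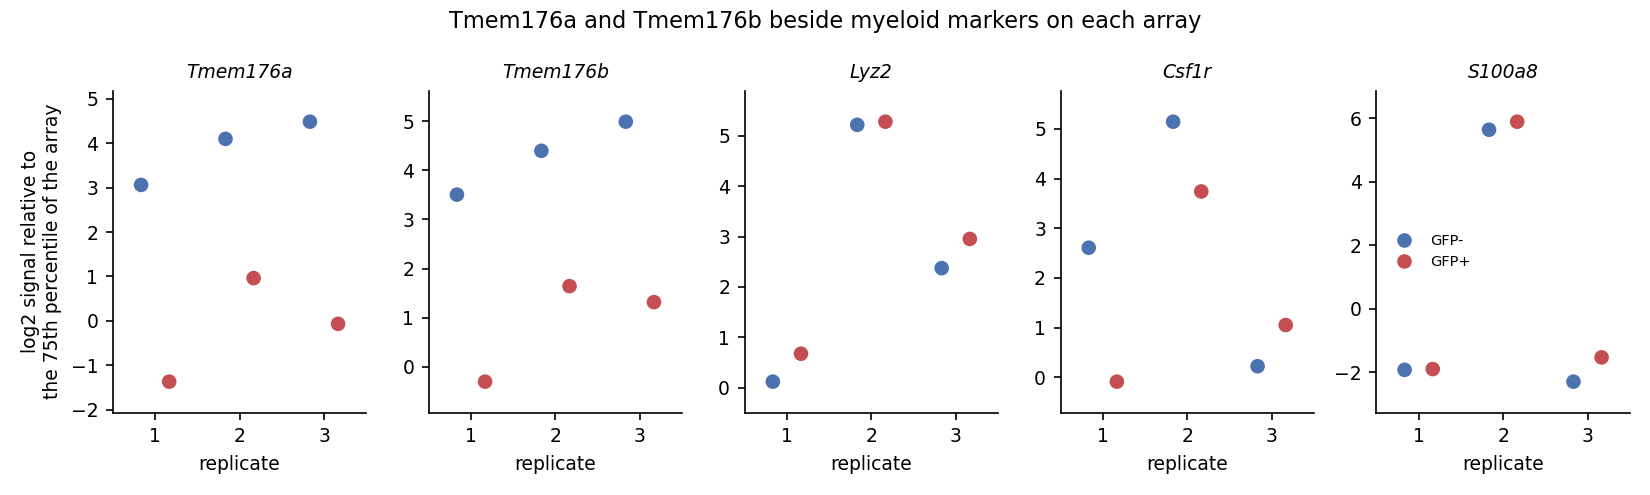
Levels of Tmem176a, Tmem176b and of the myeloid markers Lyz2, Csf1r and S100a8 on each array, as log2 signal above or below that array's 75th percentile, by replicate number, GFP- in blue and GFP+ in red. The TMEM176 genes are lower in GFP+ cells of every replicate, and the 3 markers are highest in both arrays of replicate 2.

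In RefSeq the whole of Tmem176a, 3882 bases, lies within the annotated span of Tmem176b, which reaches past it on the other strand. The 3 Tmem176b start sites of the promoter table lie 109 to 668 bases from the Tmem176a start sites, and these are transcribed away from each other. The window of the first Tmem176a start site is printed because the nearest Tmem176b start site, 109 bases upstream on the other strand, falls inside it. It holds the SOX site AACAAT, in capitals, 163 bases before the Tmem176a start.
Tmem176a, chr6:48841233-48841532 (+ strand): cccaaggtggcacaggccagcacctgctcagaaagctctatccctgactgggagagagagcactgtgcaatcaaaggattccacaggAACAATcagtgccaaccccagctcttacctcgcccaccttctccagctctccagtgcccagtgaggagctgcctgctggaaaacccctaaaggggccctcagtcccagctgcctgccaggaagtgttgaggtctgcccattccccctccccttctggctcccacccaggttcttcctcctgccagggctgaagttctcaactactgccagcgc

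The same 6 bases lie in a Tmem176b window, 188 bases before another start site of that gene. The SOX site occurred in these 2 of the 12 windows and in 10.7% of all windows. Of 15 listed MS4A genes, the four-span family to which the TMEM176 genes are related, 9 were tested; 0 passed (limma), with 2 higher and 0 lower at an unadjusted p under 0.05, and 1 was lower with the block. Their median difference was 0.17. Ms4a4b, a four-span protein of T cells, differed by 0.53 ± 0.16 (SE; adjusted p = 0.234), and Ms4a4c by 0.51 ± 0.15 (adjusted p = 0.199).

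Ramp1 encodes a single-pass partner that joins the receptor CALCRL to form the receptor for CGRP, a neuropeptide of sensory nerves. Its brightest probe spans an intron, from chr1:93093453-93119708 (mm9), and so reads spliced RNA. It is printed here as deposited.
Ramp1 junction probe: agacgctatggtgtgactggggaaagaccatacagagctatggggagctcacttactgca

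Levels of this probe were 5.06, 5.25 and 5.25 in GFP- and 3.22, 3.68 and 2.71 in GFP+ replicates 1, 2 and 3. On this probe GFP- arrays differed little among themselves (SD 0.10, n = 3) and GFP+ arrays more (SD 0.49, n = 3). Ramp1 fell by 1.98 ± 0.27 (SE), 3.96-fold (limma, adjusted p = 0.0231), with differences of -1.84, -1.57 and -2.54 within replicates 1, 2 and 3. The probe of transcript variant 3 (chr1:93103294-93103353) differed by -1.94 (adjusted p = 0.0073 over single probes), and the downstream probe (chr1:93121428-93121487) by -2.04 (adjusted p = 0.00672). All 3 probes were above background on all arrays and gave 3.82-fold to 4.11-fold. The wider spread in GFP+ cells was seen on the junction probe only. The SD was 0.21 in GFP- and 0.14 in GFP+ cells on the variant 3 probe. On the downstream probe it was 0.26 in GFP- and 0.07 in GFP+ cells.

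Of 10 listed genes of the CGRP and adrenomedullin system 3 were tested, with 1 lower and 0 higher, and a median of -0.20. The one that fell was Ramp3, which joins CALCRL to form an adrenomedullin receptor. It fell by 4.48 ± 0.35 (SE), 22.4-fold (limma, adjusted p = 0.0044), with differences of -4.09, -4.20 and -5.16 within replicates 1, 2 and 3. Calcrl was above background on 1 of the 6 arrays, GFP- replicate 1 at -4.93, Ramp2 on 1, and Calcr, the calcitonin receptor, on none. Of the genes for the ligands, Calca was not above background on any array, and Calcb was above it on 2 GFP+ arrays and no GFP- array, with levels of -3.65, -3.83 and -4.06 in GFP+ and -5.57, -6.76 and -5.71 in GFP- replicates 1, 2 and 3; it was not tested.

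Igf1r encodes the receptor tyrosine kinase for insulin-like growth factors. Its single probe (chr7:75378461-75378520) had levels of 1.20, 1.10 and 1.38 in GFP- and -0.64, -0.67 and -0.92 in GFP+ replicates 1, 2 and 3. Arrays within a group lay close together, with an SD of 0.14 in GFP- and 0.15 in GFP+ cells (n = 3 each). Igf1r fell by 1.97 ± 0.16 (SE), 3.92-fold (limma, adjusted p = 0.0044), with differences of -1.84, -1.77 and -2.30 within replicates 1, 2 and 3. Its difference was close to that of Ramp1 in size, and its adjusted p was lower, with an SE of 0.16 against 0.27.

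Of 22 other listed genes of the insulin and IGF system, 11 were tested; 0 passed (limma), with 0 higher and 2 lower at an unadjusted p under 0.05 and 2 lower with the block. Their median was -0.03. Igf2r, the scavenging receptor for IGF2, differed by -0.03 ± 0.17 (SE; adjusted p = 0.992), and Shc1, an adaptor of receptor kinases, by 0.14 ± 0.21 (adjusted p = 0.962). The insulin receptor gene Insr differed by 0.12 ± 0.33 (adjusted p = 0.982). Igfbp4, a secreted IGF-binding protein, had the greatest difference of the list, -2.86 ± 0.54 (adjusted p = 0.0620, and 0.0163 with the block); Insr and Igfbp4 are named after their values were seen. In the Igf1r promoter window the ROR core site starts 86 bases before the start site, on the other strand.

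Actn2 has 2 probes. The bright one spans an exon junction (chr13:12364990-12367362, minus strand, mm9), and the other, at chr13:12400548-12400607 and designed on a RIKEN clone record, was not above background on any array. The junction probe is printed because the Actn2 value rests on it alone.
Actn2 junction probe: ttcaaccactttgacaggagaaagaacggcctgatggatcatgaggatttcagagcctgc

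Its levels were 0.81, 1.54 and 1.76 in GFP- and -2.54, -2.46 and -2.27 in GFP+ replicates 1, 2 and 3. GFP+ arrays lay close together (SD 0.14, n = 3), and the lowest GFP- array, replicate 1, lay far above them. Actn2 fell by 3.80 ± 0.28 (SE), 13.9-fold (limma, adjusted p = 0.00319), with differences of -3.36, -4.00 and -4.03 within replicates 1, 2 and 3. With the dim probe averaged in, the difference was -1.46 (adjusted p = 0.0445), an average that takes in a probe without signal above background.

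Of 20 listed α-actinins and their partners at actin filaments, 14 were tested; 0 passed (limma), with 0 higher and 4 lower at an unadjusted p under 0.05 and 3 lower with the block. Their median was -0.07. Flna, which cross-links actin and anchors integrins, differed by -0.48 ± 0.13 (SE; adjusted p = 0.188), and Pdlim1, a PDZ and LIM protein that binds α-actinin, by -0.82 ± 0.17 (adjusted p = 0.0852, and 0.0204 with the block). The non-muscle α-actinins differed by -1.04 ± 0.40 for Actn1 (adjusted p = 0.366, and 0.0181 with the block) and by -0.04 ± 0.34 for Actn4 (adjusted p = 0.997). Pdlim4 had the greatest difference, -3.37 ± 0.63 (adjusted p = 0.0607, and 0.0320 with the block); it and the non-muscle actinins are named after their values were seen. The Actn2 promoter window holds the ROR core site 170 bases before the start site, in capitals.
Actn2, chr13:12340683-12340982 (- strand): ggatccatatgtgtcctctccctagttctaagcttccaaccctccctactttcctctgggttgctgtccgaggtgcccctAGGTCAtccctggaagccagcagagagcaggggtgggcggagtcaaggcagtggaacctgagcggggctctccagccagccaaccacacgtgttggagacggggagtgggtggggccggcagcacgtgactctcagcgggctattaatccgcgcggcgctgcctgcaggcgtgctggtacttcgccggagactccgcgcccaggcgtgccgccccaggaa

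**Figure D3:**
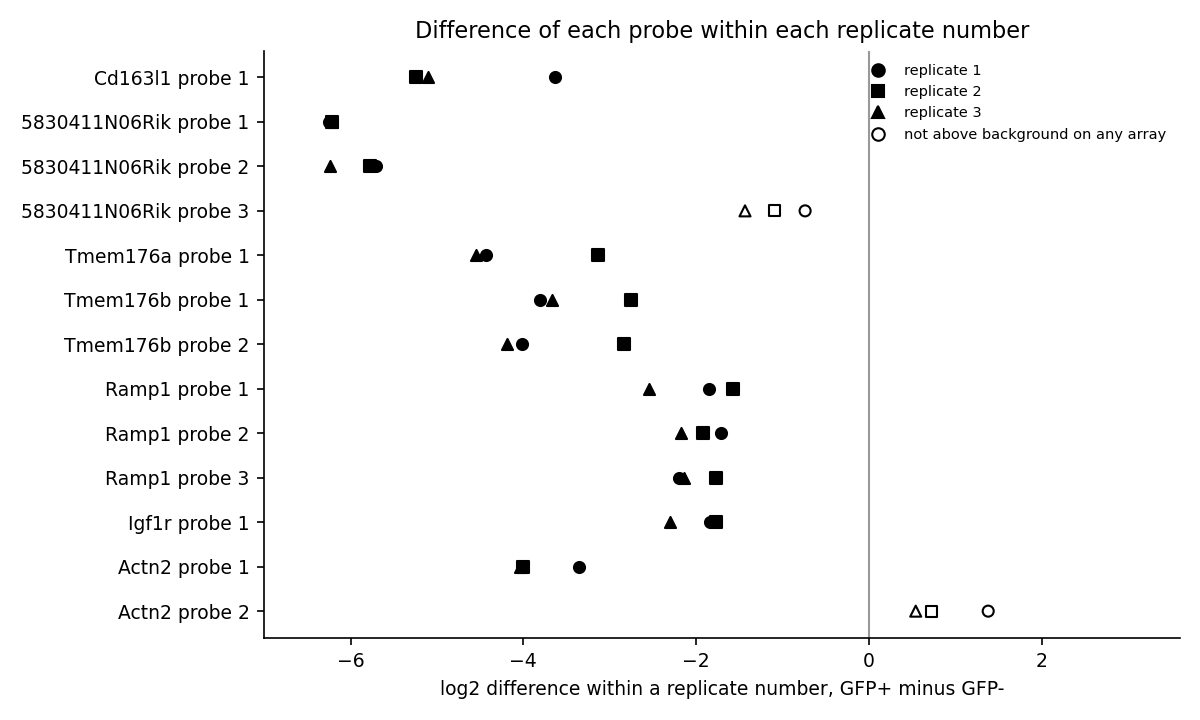
Difference of every probe of the 7 genes within each replicate number, as log2 GFP+ minus GFP-; probes are numbered by level within a gene, and open symbols mark probes not above background on any array. The filled symbols all lie below 0, and those of 5830411N06Rik probe 1 nearly coincide at -6.25, -6.21 and -6.21.

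The 7 genes stood at different depths of the distribution of all differences. Counted from the most negative of 16413 genes, 5830411N06Rik was 12th, Cd163l1 41st, Tmem176a 65th, Actn2 75th, Tmem176b 96th, Ramp1 277th and Igf1r 279th. Neighbours in this order differed by less than the larger of their SEs, except 5830411N06Rik from Cd163l1 and Tmem176b from Ramp1.

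**Figure D4:**
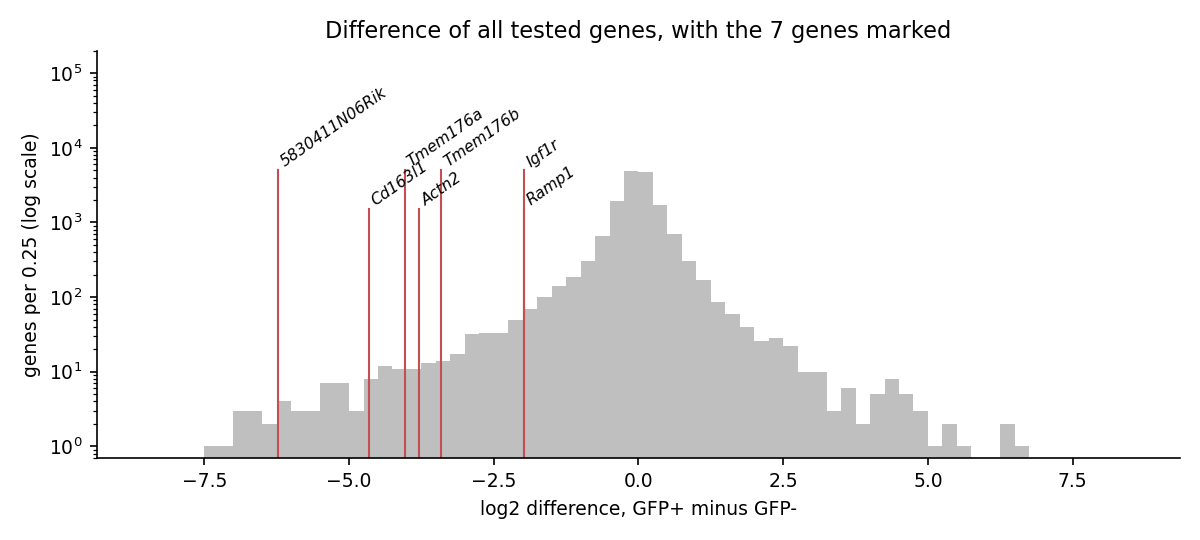
Histogram of the log2 difference, GFP+ minus GFP-, of all 16413 tested genes, with the number of genes on a log axis and the 7 genes marked by red lines. All 7 lie in the lower tail, from -6.22 to -1.97.

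A further 24 genes of the type 17 programme were listed for comparison, chosen with results of these arrays known. Of the 23 tested, 13 fell and 0 rose (17 fell with the block), with a median of -3.83. Named from it by the fitted difference are Kcnk1, a potassium channel, at least 103-fold lower, Itgae, the CD103 integrin chain, with a fitted difference of -7.11 ± 0.62 (SE; limma, adjusted p = 0.00595), and Blk, a Src family kinase, with -6.93 ± 0.95 (adjusted p = 0.0242). Kcnk1 (adjusted p = 0.0019) was not above background on any GFP+ array, so its fold is a bound at the background floor, while Itgae and Blk were above it on 1 GFP+ array each, so no fold is given for them and the 3 are not ranked. Unlike Kcnk1, all 7 genes of this account kept a signal above background in every GFP+ array. So did other genes of the type 17 list that fell, among them Rora, Maf, Zbtb16 and Ccr6.

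**Figure D5:**
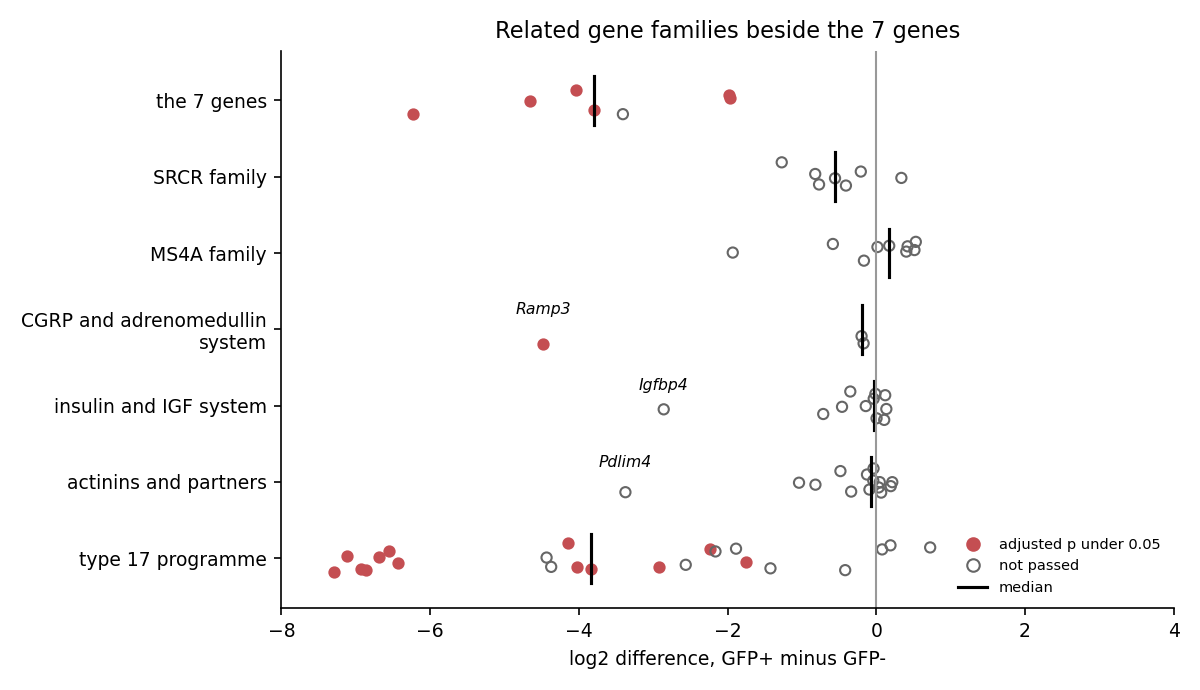
Log2 difference, GFP+ minus GFP-, of the 7 genes and of the tested genes of the 6 comparison lists; red points passed the adjusted p of 0.05, open points did not, and the black line is the median of a list. The medians of the 7 genes and of the type 17 list lie at -3.80 and -3.83, and those of the 5 related families between -0.56 and 0.17.

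The tested genes whose centred levels over the 6 arrays were most like each of the 7 were found by the root mean square (RMS) difference, with 6 arrays of 2 groups behind every value. Because they were chosen on these same arrays, a replicate pattern shared with one of the 7 follows in part from the choice. It is not a separate result. Cd163l1 was most like Tcrg-V6, a T cell receptor γ variable gene as the array names it (RMS 0.342), and Tnfrsf25, a TNF family receptor (RMS 0.362). Tcrg-V6 differed by -4.02 ± 0.43 (SE; limma, adjusted p = 0.0117), and by -2.90, -4.73 and -4.44 within replicates 1, 2 and 3, smallest in replicate 1 as for Cd163l1. 5830411N06Rik was most like Abi3bp, an extracellular matrix protein gene (RMS 0.102), and Mal, a membrane raft protein gene (RMS 0.242). Tmem176a was most like S100a4, a calcium-binding protein gene (RMS 0.256), and Tmem176b like Niban2 (RMS 0.205), and Plxnd1, a semaphorin receptor gene, came second for both (RMS 0.335 and 0.290). S100a4, Niban2 and Plxnd1 each showed the smallest difference in replicate 2, as the TMEM176 genes did. Ramp1 was most like Trib3 (RMS 0.137), Igf1r like Tmem64 (RMS 0.135) and Tjp3, a tight junction protein (RMS 0.138), and Actn2 like Pard3, a cell polarity protein (RMS 0.172), and Acsbg1, an acyl-CoA synthetase (RMS 0.249). Among the 7 genes themselves the closest were Ramp1 and Igf1r (RMS 0.234), then Tmem176a and Tmem176b (RMS 0.380), then Cd163l1 and Actn2 (RMS 0.517). Cd163l1 and 5830411N06Rik, though neighbours on the chromosome, were 0.967 apart. The RMS takes in the size of the group difference as well as the pattern over replicates. That size was -4.66 for Cd163l1 and -6.22 for 5830411N06Rik, and -1.98 for Ramp1 and -1.97 for Igf1r. These distances therefore do not rank likeness of pattern alone.

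The protein-coding genes nearest to the 7 along the chromosome, up to 3 on each side, were examined after the values were seen. Of these 31 neighbours that are not among the 7, 20 were tested; 0 were called lower (limma; 1 at an unadjusted p under 0.05, and 0 with the block) and 1 was called higher (2 at an unadjusted p under 0.05, and 2 with the block). The called gene was Rab17, a small GTPase gene near Ramp1, at 2.10 ± 0.29 (SE; adjusted p = 0.0257).

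The calls rest on 3 arrays a group. Without both arrays of replicate 1 or of replicate 2, 0 of the 7 passed limma's adjusted threshold, and neither did any of the 16413 genes, with lowest adjusted p of 0.0663 and 0.0616, so these fits do not set the 7 apart. Without those of replicate 3 only 5830411N06Rik of the 7 passed. All 7 kept an unadjusted p under 0.05 and a lower level in GFP+ cells in these 3 fits; of all genes, 1354, 1267 and 1973 had an unadjusted p under 0.05. The slides gave another split, since replicate 1 and GFP- replicate 2 shared a slide, GFP+ replicate 2 had its own and both arrays of replicate 3 shared another; within the first slide the differences of the 7 genes ran from -6.20 to -1.79, and within the last from -6.21 to -2.30. With the slide as a block all 7 passed. In that fit GFP+ replicate 2, the only array of its slide, adds nothing to the group difference.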

How the data were processed

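RNA of 3 GFP+ and 3 GFP- samples was measured on one-colour Agilent arrays. Per the file headers, the signal is an intensity on a linear scale from Agilent Feature Extraction 10.7.3.1, background-subtracted and detrended, not normalized between arrays. Outside its low end, the authors' deposited value table holds intensities at a nearly constant log2 offset from it (interquartile range at most 0.0034). Its 75th percentiles were 1497 to 1506 and its minima 15 to 17. Over all probes the interquartile range of the offset was 0.401 to 0.616 on arrays of replicates 1 and 2. On those of replicate 3 it was 0.0250 to 0.0271. The deposited table was used as an alternative. Flags for signal above background, saturation and outliers are other columns of the same software, per the file headers.

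Log2 intensities were averaged over the 4 spots of each probe, outlier spots left out, and the array's 75th percentile was subtracted. A probe counted as above background where at least 50% of its spots did. The brightest probe stood for a gene, and genes above background on at least 3 of 6 arrays were tested with limma 3.58.1 in R 4.3.3, by group only, with Benjamini-Hochberg adjusted p-values and a threshold of 0.05. Spots of one probe on one array had an SD of 0.0069 to 0.404 log2 units over the 11 tested probes. With 3 arrays against 3, the smallest two-sided p of an exact permutation test is 0.1, so single genes were tested in the fit only. The series' design text gives 3 independent sorts. Without the block, p-values measure the spread of levels between sorts within a group. With the replicate block they measure the spread of the difference between sorts. A fold called "at least" sets each array without signal above background to the lowest signal above background on it, or its own signal where higher.

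The numbers pair the samples: deviations of same-numbered arrays from their group means correlated at 0.812, 0.818 and 0.808 over all tested genes, and age and RNA input are shared. Names came from RefSeq accessions for 27508 probes, and promoter sequences from RefSeq on GRCm38.p6, which matched all 7 genes; probe positions are mm9 and were not converted. The fit was tested on simulated data. Named were all 7 genes with every probe, Eomes, up to 3 called genes of each list by size, or else the 2 brightest, and 2 most like genes for each of the 7; 1 of these is not reported here. The 7 genes and the lists were chosen with earlier results of these data known. The 20 alternatives covered background correction, scaling, the filter, a signal floor, averaging probes, replicate or slide blocks, an intensity trend and leaving out arrays.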

Additional observations from a re-analysis of the deposited data

How the results depend on the processing

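Under the 20 alternatives all 7 genes stayed lower in GFP+ cells, and 0 were called higher. Tmem176a lost its call in 9 alternatives and Ramp1 in 8, Cd163l1, Igf1r and Actn2 in 3 each and 5830411N06Rik in 2, while Tmem176b gained one in 6, with adjusted p from 0.00957 to 0.0471 there and up to 0.289 in the others. Calls were lost only in fits that left out arrays, except that Tmem176a and Ramp1 also lost theirs with no filter on dim probes. Why calls changed was not tested. Tmem176b gained its call under normexp background correction (-3.33), array median scaling (-3.31), the mean of its probes (-3.54), the replicate block (-3.41), the slide block (-4.00) and an intensity trend (-3.41). With no filter on dim probes Tmem176a stayed at -4.04 and Ramp1 at -1.98, but neither passed (limma, adjusted p = 0.0758 and 0.0526). That fit tested 30342 genes. Leaving out a replicate number gave 0 to 1 of the 7 genes and 0 to 2 of their probes called lower, and 0 to 41 genes called higher and 0 to 28 lower among all; leaving out 1 array gave 57 to 101 and 94 to 180. Over all genes, 197 were called higher and 257 lower; no filter gave 92 and 154, genes above background on all 6 arrays gave 166 lower, and the replicate block gave 600 and 710. The block changed no other call of the 7 genes than that of Tmem176b. Dim signals limit 2 of the 13 probes, which were not above background on any array.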
